A study of Mus musculus with 12 samples.

Results

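The genes described are 9 genes of triglyceride synthesis and of the supply of its glycerol backbone: Acsl1, Gpd1, Gpam, Agpat2, Lpin1, Dgat1, Dgat2, Pck1 and Aqp7. They were chosen by name, not by their values, but with earlier results of these data known. Each stood at 1 locus among the 24888 gene entries of every library. Expression was measured by RNA sequencing of ribosomal-RNA-depleted total RNA in 12 libraries of mouse adipocytes differentiated in culture, in 6 groups of 2. The first 2 groups were beige adipocytes made with rosiglitazone, an agonist of the nuclear receptor PPARγ, from inguinal white fat preadipocytes of C57BL/6 mice, labelled ATF7KO in one group and WT in the other. The next 2 groups were white adipocytes made from the same kinds of preadipocytes, ATF7KO and WT, without rosiglitazone. The last 2 groups were beige adipocytes made with rosiglitazone from C3H10t1/2, a mouse mesenchymal cell line that can form adipocytes, either ATF7-Overexpressing or Control. ATF7 is a transcription factor of the ATF2 family. Whether replicates came from separate animals or cultures, the age and sex of the mice and how ATF7 was removed or expressed are not given in the sources, so the p-values below measure the spread between libraries, which may be technical.

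Adipocytes store energy as triglyceride, which is built by adding fatty acids to glycerol 3-phosphate. Fatty acids are first activated to acyl-CoA, and the backbone is then acylated, dephosphorylated and acylated again in a fixed order of steps. Because adipocytes phosphorylate little of the glycerol they release, the backbone comes largely from glycolysis or from glyceroneogenesis, a shortened gluconeogenesis that starts from pyruvate and runs through PEPCK, the enzyme encoded by Pck1. Several of these genes, Pck1 and Aqp7 among them, are known targets of PPARγ in fat cells.

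The deposited values were FPKM, fragments per kilobase of transcript scaled to library size, so read depth is unknown. Between 9844 and 10877 genes per library reached 1 FPKM, and replicates of a group had a Pearson's r of 0.984 to 0.992 across genes. The 9 genes took between 0.413% and 1.41% of the summed FPKM of a library, lowest in the white adipocytes and highest in C3H10t1/2. Atf7 was at 7.26 and 7.94 FPKM in ATF7KO beige libraries, against 7.80 and 7.83 FPKM in WT beige libraries. In white adipocytes Atf7 was at 6.88 and 7.73 FPKM in ATF7KO libraries, against 9.10 and 7.10 FPKM in WT libraries. Atf7 RNA was therefore not detectably lower where ATF7KO was the label, and since the part of the gene removed is not given in the sources used here, a value over the whole gene does not check that label. Every direction given for ATF7KO rests on the labels. In C3H10t1/2, Atf7 was at 41.2 and 39.1 FPKM in ATF7-Overexpressing libraries, against 8.52 and 9.09 FPKM in Control libraries (log2 fold change 2.07, SE 0.0695, limma adjusted p = 0.000162).

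Before the values, the promoter sequence of 3 genes is shown, because Pck1 and Aqp7 had the largest increases with rosiglitazone and Gpam one of the 2 decreases. The 250 bases before the start of each gene are from RefSeq on GRCm38.p6 and are written 5′ to 3′ on the gene's strand. Capitals mark matches to 2 motifs searched on both strands: ACGTCA, the core shared by many sites of the ATF and CREB proteins and contained in the full site TGACGTCA, and AGGTCA, the nuclear receptor half-site found as a direct repeat, AGGTCA followed by 1 base and AGGTCA again, in sites that PPARγ binds with RXR. The Pck1 window is chr2:173152823-173153072 on the plus strand, the Aqp7 window is chr4:41048137-41048386 on the minus strand, and the Gpam window is chr19:55099478-55099727 on the minus strand.
Pck1: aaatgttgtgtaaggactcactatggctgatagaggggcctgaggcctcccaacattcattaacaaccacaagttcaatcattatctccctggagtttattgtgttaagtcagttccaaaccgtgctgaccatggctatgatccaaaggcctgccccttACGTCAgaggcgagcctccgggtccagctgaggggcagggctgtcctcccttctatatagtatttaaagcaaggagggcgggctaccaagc
Aqp7: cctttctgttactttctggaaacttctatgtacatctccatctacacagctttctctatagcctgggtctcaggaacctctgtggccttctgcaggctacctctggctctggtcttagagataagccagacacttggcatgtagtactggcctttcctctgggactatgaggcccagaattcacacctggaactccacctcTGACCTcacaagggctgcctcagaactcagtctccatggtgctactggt
Gpam: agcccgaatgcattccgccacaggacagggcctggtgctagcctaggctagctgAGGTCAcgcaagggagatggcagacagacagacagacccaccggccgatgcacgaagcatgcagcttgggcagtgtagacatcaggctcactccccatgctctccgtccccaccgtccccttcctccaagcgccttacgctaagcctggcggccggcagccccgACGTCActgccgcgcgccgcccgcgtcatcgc

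The Pck1 window held ACGTCA from 91 to 86 bases before the start and no AGGTCA. Aqp7 held AGGTCA on the opposite strand, read as TGACCT, from 49 to 44 bases before its start. The Gpam window held both, AGGTCA from 196 to 191 and ACGTCA from 32 to 27 bases before its start. Of 32851 RefSeq windows of the same length, 6.47% held ACGTCA, 14.0% held AGGTCA, 1.55% held TGACGTCA and 0.0335% held the direct repeat. The windows of Agpat2 and Acsl1, the other genes with a RefSeq window at the deposited start, held none of these motifs, and none of the 5 windows held TGACGTCA or the direct repeat. A match describes letters in a window and is not a measured binding site.

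The levels of the 9 genes differed widely within a library, and FPKM can be compared between genes because it is scaled to length. In WT beige adipocytes the order by mean FPKM was Agpat2 at 533 ± 18.7, Acsl1 at 454 ± 2.17 and Gpd1 at 413 ± 14.2, and then Lpin1 at 69.7 ± 3.19, Dgat1 at 64.8 ± 1.60, Dgat2 at 44.6 ± 1.0, Gpam at 38.3 ± 1.75, Pck1 at 32.7 ± 0.719 and Aqp7 at 29.5 ± 0.692 (SD, n = 2). In WT white adipocytes Dgat2 came second at 299 ± 37.2, after Acsl1 at 312 ± 17.0, and Pck1 came last at 4.82 ± 0.729 (SD, n = 2). Dgat2 overlapped there both with Acsl1 above it and with Agpat2 below it (269 ± 20.9), and in replicate 1 Agpat2 was above Dgat2, at 284 against 273 FPKM. Dgat1 and Lpin1, and Aqp7 and Pck1 at the foot of the order, overlapped too, while no neighbours in the order overlapped in WT beige adipocytes. In both C3H10t1/2 groups Gpd1 led, with 1291 ± 41.1 FPKM in ATF7-Overexpressing cells and 1434 ± 140 FPKM in Control cells (SD, n = 2).

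**Figure D1:**
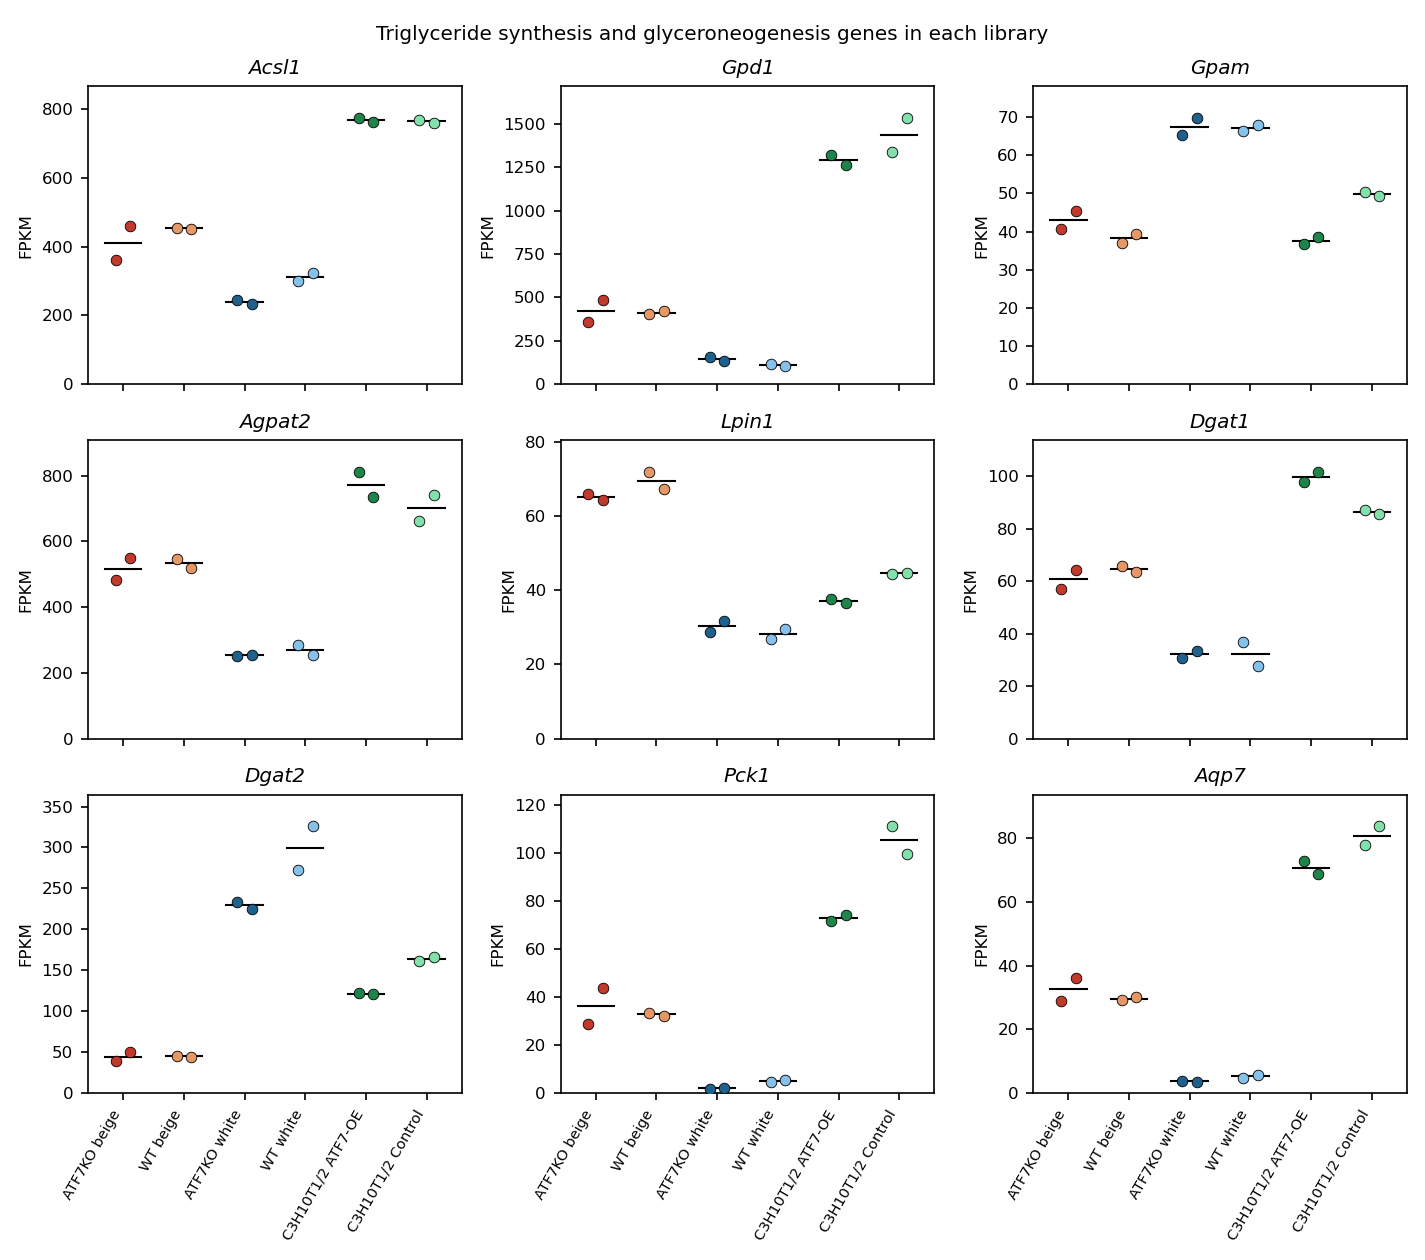
FPKM of each of the 9 genes in each of the 12 libraries, 1 panel per gene. Each point is 1 library. The groups run in the order ATF7KO beige, WT beige, ATF7KO white, WT white, ATF7-Overexpressing and Control. Dgat2 and Gpam are highest in the white adipocytes, and Pck1 and Aqp7 fall to under 6 FPKM there.

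The first comparison set beige adipocytes, made with rosiglitazone, against white adipocytes, made without it, in WT and in ATF7KO-labelled cells. All 9 genes changed in both. Of these, 7 genes, Pck1, Aqp7, Gpd1, Lpin1, Dgat1, Agpat2 and Acsl1, were higher in beige adipocytes, and Dgat2 and Gpam were lower. The background was high: 53.7% of the 11294 genes tested changed between WT beige and WT white adipocytes (21.6% higher, 32.1% lower), and 61.0% between ATF7KO beige and ATF7KO white adipocytes (26.6% higher, 34.3% lower). The median log2 fold change of the 9 genes was 1.0 in WT and 1.02 in ATF7KO, against −0.10 and −0.06 over all genes tested.

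The same libraries differed in the markers of several cell types. The summed FPKM of 8 adipocyte markers was 10373 to 10999 in WT beige and 3796 to 4507 in WT white libraries, and 10171 to 11236 in ATF7KO beige and 2986 to 3070 in ATF7KO white libraries. Most of these sums was Fabp4, at a mean of 8891 FPKM in WT beige and 2776 in WT white adipocytes. Of the 8, 5 were higher and 1 lower in WT beige, and 7 higher and 1 lower in ATF7KO beige adipocytes. Retn was the lower one, at 212 against 524 FPKM in WT, and Pparg was level in WT, at 46.0 against 45.4 FPKM. The 12 macrophage markers summed to 28.3 to 28.8 FPKM in WT beige and 524 to 585 in WT white libraries, and to 26.9 to 32.5 in ATF7KO beige and 775 to 823 in ATF7KO white libraries. The 8 preadipocyte and stromal markers summed to 93.2 to 102 FPKM in WT beige and 270 to 294 in WT white libraries, and to 101 to 112 in ATF7KO beige and 345 to 394 in ATF7KO white libraries. All 12 macrophage markers, and all 7 preadipocyte markers tested, were lower in beige adipocytes of both genotypes. Endothelial markers summed to at most 4.45 FPKM in any library. In bulk RNA, fewer cells of a type and less RNA per cell cannot be told apart, and the part of these cell types in the results was not tested. As for the labelled cell types, the thermogenic list, with Ucp1, summed to 867 to 909 FPKM in WT beige and 55.5 to 59.3 in WT white libraries, and Ucp1 was listed at 0 in all 4 white libraries.

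Acsl1 activates long-chain fatty acids to acyl-CoA, the substrate of every acylation step. Its level was 455 and 452 FPKM in WT beige libraries, against 300 and 324 FPKM in WT white libraries. In ATF7KO-labelled cells Acsl1 was at 362 and 459 FPKM in beige libraries, against 245 and 234 FPKM in white libraries. The groups did not overlap, and these were the smallest increases among the 7 genes, with a log2 fold change of 0.54 (SE 0.135, limma adjusted p = 0.00875) in WT and 0.77 (SE 0.135, adjusted p = 0.00108) in ATF7KO. The WT call was lost without WT beige replicate 1 (adjusted p = 0.0533) or replicate 2 (adjusted p = 0.0502).

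Gpd1 encodes the cytosolic glycerol 3-phosphate dehydrogenase, which makes the backbone from dihydroxyacetone phosphate. It stood at 402 and 423 FPKM in WT beige libraries, against 115 and 108 FPKM in WT white libraries. The ATF7KO libraries had 359 and 486 FPKM of Gpd1 in beige adipocytes, against 157 and 134 FPKM in white adipocytes. Every beige library lay above every white library, by a log2 fold change of 1.88 (SE 0.156, limma adjusted p = 1.69e-05) in WT and 1.52 (SE 0.156, adjusted p = 4.23e-05) in ATF7KO.

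Gpam encodes the mitochondrial enzyme that adds the first fatty acid to glycerol 3-phosphate, and it ran against most of the pathway. Gpam was at 37.0 and 39.5 FPKM in WT beige libraries, against 66.4 and 67.9 FPKM in WT white libraries. With the ATF7KO label it was at 40.7 and 45.3 FPKM in beige adipocytes, against 65.2 and 69.8 FPKM in white adipocytes. All 4 beige libraries lay below all 4 white libraries, with a log2 fold change of −0.80 (SE 0.0994, limma adjusted p = 0.000181) in WT and −0.64 (SE 0.0994, adjusted p = 0.000525) in ATF7KO.

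Agpat2 adds the second fatty acid, giving phosphatidic acid, and its loss causes lipodystrophy. Agpat2 was at 546 and 519 FPKM in WT beige libraries, against 284 and 254 FPKM in WT white libraries, and at 481 and 550 FPKM in ATF7KO beige libraries, against 252 and 255 FPKM in ATF7KO white libraries. The mean FPKM ratio was close in the 2 genotypes, at 1.98 in WT and 2.04 in ATF7KO. On the log2 scale the changes were 0.98 (SE 0.120, limma adjusted p = 0.000155) in WT and 1.02 (SE 0.120, adjusted p = 9.45e-05) in ATF7KO.

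Lpin1 encodes lipin 1, which removes the phosphate from phosphatidic acid to give diacylglycerol and also acts as a transcriptional coregulator. It was at 71.9 and 67.4 FPKM in WT beige libraries, against 26.9 and 29.7 FPKM in WT white libraries. Lpin1 stood at 66.0 and 64.6 FPKM in ATF7KO beige libraries, against 28.9 and 31.7 FPKM in ATF7KO white libraries. The groups were far apart, by a log2 fold change of 1.27 (SE 0.10, limma adjusted p = 1.31e-05) in WT and 1.08 (SE 0.10, adjusted p = 2.21e-05) in ATF7KO.

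Dgat1 and Dgat2 encode the enzymes of the last step, which turn diacylglycerol into triglyceride; they are unrelated in sequence. Dgat1 was at 65.9 and 63.7 FPKM in WT beige libraries, against 36.7 and 27.5 FPKM in WT white libraries. Dgat2 was at 45.3 and 43.9 FPKM in WT beige libraries, against 273 and 326 FPKM in WT white libraries. The enzymes thus moved in opposite directions in WT, with a log2 fold change of 1.0 (SE 0.139, limma adjusted p = 0.000337) for Dgat1 and −2.71 (SE 0.145, adjusted p = 1.86e-06) for Dgat2. In ATF7KO-labelled cells Dgat1 was at 57.2 and 64.4 FPKM in beige adipocytes, against 30.7 and 33.4 FPKM in white adipocytes. Dgat2 had 38.3 and 50.3 FPKM in ATF7KO beige, against 234 and 225 FPKM in ATF7KO white adipocytes. The split was there again, with log2 fold changes of 0.90 (SE 0.139, limma adjusted p = 0.000502) for Dgat1 and −2.36 (SE 0.145, adjusted p = 2.17e-06) for Dgat2. Dgat2 had the largest decrease of the 9 genes in both genotypes.

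Pck1 encodes cytosolic PEPCK, the control point of glyceroneogenesis. Its level was 33.2 and 32.2 FPKM in WT beige libraries, against 4.30 and 5.33 FPKM in WT white libraries. In ATF7KO-labelled cells Pck1 was at 28.6 and 43.7 FPKM in beige adipocytes, against 1.70 and 1.99 FPKM in white adipocytes. These were the largest increases of the 9 genes, with a log2 fold change of 2.54 (SE 0.181, limma adjusted p = 7.91e-06) in WT and 3.68 (SE 0.181, adjusted p = 7.86e-07) in ATF7KO. The pseudocount of 1 FPKM added before taking log2 makes the fold changes of a gene this low in white adipocytes too small. The ratio of mean FPKM was 6.79 in WT and 19.6 in ATF7KO.

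Aqp7 encodes an aquaglyceroporin through which glycerol leaves the adipocyte. It stood at 29.0 and 30.0 FPKM in WT beige libraries, against 4.71 and 5.59 FPKM in WT white libraries, and at 28.9 and 36.2 FPKM in ATF7KO beige libraries, against 3.77 and 3.43 FPKM in ATF7KO white libraries. All beige libraries were several times higher than all white ones. The log2 fold change was 2.31 (SE 0.126, limma adjusted p = 2.01e-06) in WT and 2.86 (SE 0.126, adjusted p = 4.73e-07) in ATF7KO.

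**Figure D2:**
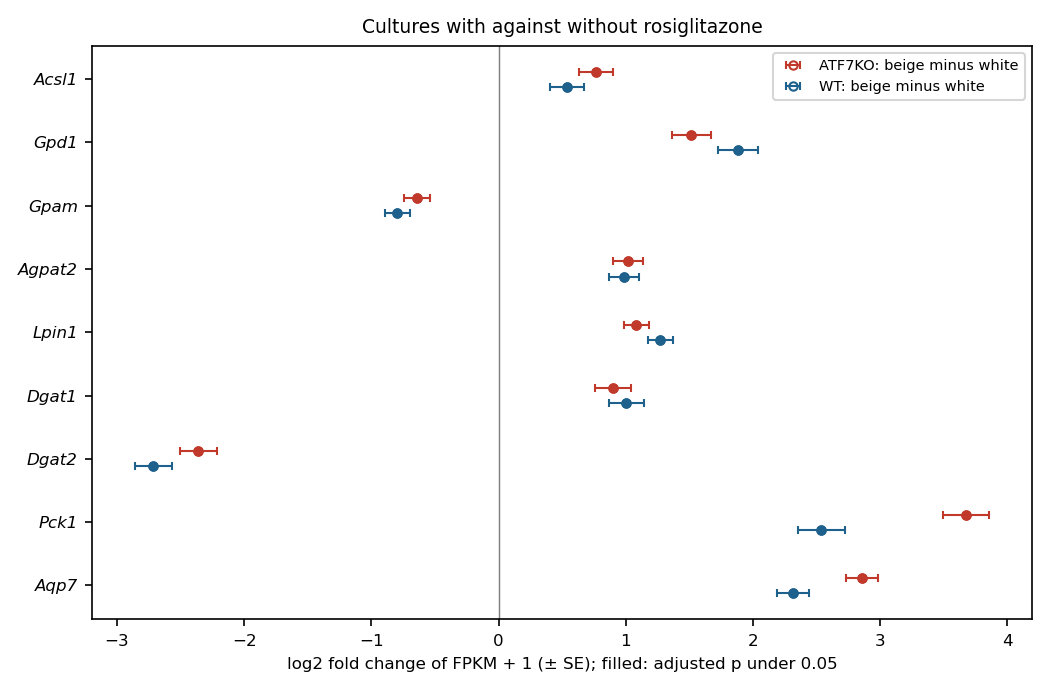
Log2 fold change of each of the 9 genes between beige and white adipocytes, for ATF7KO-labelled and for WT cells. Bars are ± SE from limma, not 95% intervals, and filled points have an adjusted p under 0.05. Pck1, Aqp7, Gpd1, Lpin1, Dgat1, Agpat2 and Acsl1 lie above 0 and Dgat2 and Gpam below 0 in both genotypes.

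The wider pathway was described with 36 other genes of glycerolipid synthesis, glycerol and fatty acid entry and droplet assembly, of which 30 were tested in the primary cells. In WT, 12 were higher and 5 lower in beige adipocytes, with a median log2 fold change of 0.14 over the 30. In ATF7KO, 18 were higher and 7 lower, with a median of 0.41. Of all genes tested 53.7% changed in WT and 61.0% in ATF7KO, with medians of −0.10 and −0.06. The genes of this list with the lowest p in WT were Plpp1, Slc2a4, Gk and Agpat3. Gk, the glycerol kinase that phosphorylates free glycerol, was at 14.5 and 18.0 FPKM in WT beige libraries, against 1.97 and 2.33 FPKM in WT white libraries (log2 fold change 2.45, SE 0.183, limma adjusted p = 1.00e-05). Slc2a4, the insulin-responsive glucose transporter, was at 48.5 and 45.4 FPKM in WT beige, against 15.4 and 13.4 FPKM in WT white adipocytes (1.64, SE 0.10, adjusted p = 3.56e-06). Agpat3, another acyltransferase of the second step, was higher by 1.45 (SE 0.110, adjusted p = 1.10e-05). Plpp1, a lipid phosphate phosphatase of the cell surface, fell to 6.69 and 7.60 FPKM in WT beige, against 30.3 and 29.4 FPKM in WT white adipocytes (−1.92, SE 0.0969, adjusted p = 1.41e-06). In ATF7KO the lowest p belonged to Plpp1 (−2.03), Cd36 (2.26), Plpp3 (−1.70) and Gk (3.30).

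The families of isoenzymes were set out as the share of 1 member in the summed FPKM of its family, per library. Dgat2 made up 40.7% and 40.8% of Dgat1 plus Dgat2 in WT beige libraries, against 88.2% and 92.2% in WT white libraries, and 40.1% and 43.9% in ATF7KO beige libraries, against 88.4% and 87.1% in ATF7KO white libraries. Dgat1 was thus the more abundant of the pair in all 4 beige libraries of primary cells and Dgat2 in all 4 white ones. Pck1 made up 63.5% and 62.7% of Pck1 plus Pck2, the mitochondrial form, in WT beige libraries, against 29.6% and 27.1% in WT white libraries. In ATF7KO-labelled cells the share of Pck1 was 60.2% and 70.1% in beige, against 12.9% and 13.9% in white libraries. Gpam made up 39.0% and 38.3% of Gpam and Gpat2 to Gpat4 in WT beige libraries, against 58.5% and 55.1% in WT white libraries. Other families kept the same leading member in every library: Agpat2 had at least 79.5% of its family, Lpin1 at least 89.1%, Acsl1 at least 89.2% and Gpd1 at least 96.3%. These shares are descriptions, since with 2 libraries against 2 the smallest two-sided p of an exact permutation test is 0.333.

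**Figure D3:**
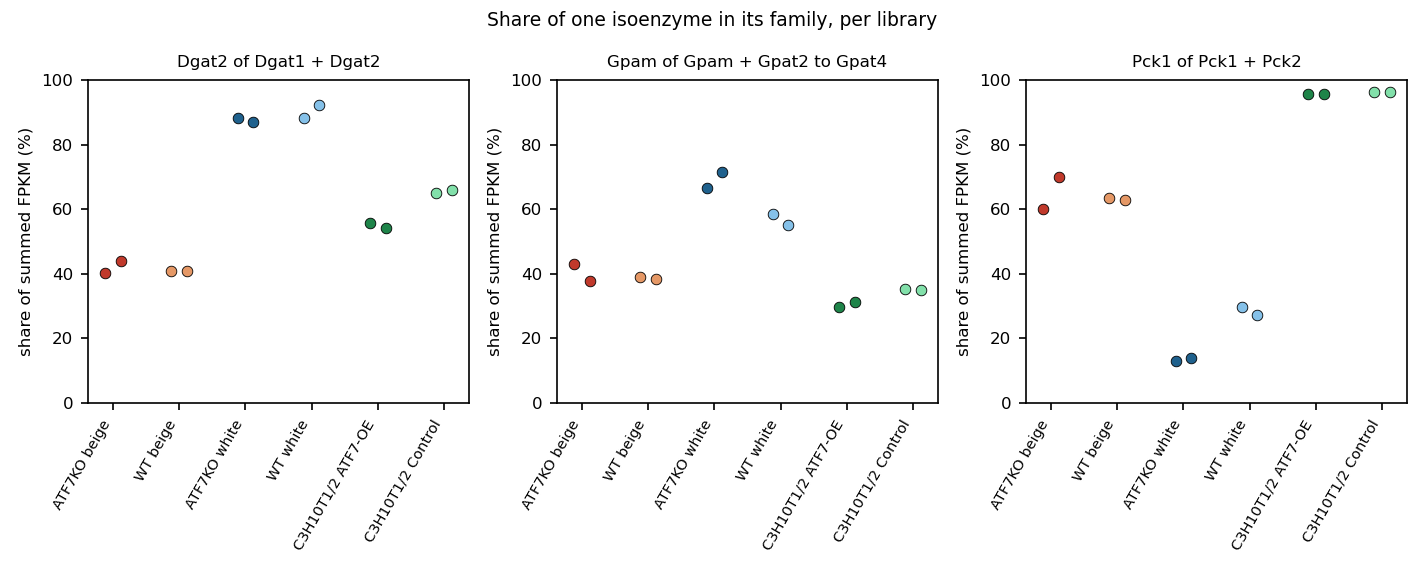
Share of Dgat2 in Dgat1 plus Dgat2, of Gpam in Gpam and Gpat2 to Gpat4, and of Pck1 in Pck1 plus Pck2, in percent of the summed FPKM of the family; each point is 1 library. Dgat2 has between 87.1% and 92.2% in the white libraries and between 40.1% and 43.9% in the beige libraries of primary cells.

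The second comparison set ATF7KO-labelled against WT beige adipocytes, and 0 of the 9 genes changed (limma). Of all 11294 genes 0.151% did (0.0531% higher, 0.0974% lower), which is 17 genes, and 1160 had an unadjusted p under 0.05, none of them among the 9. The WT beige libraries also served in the comparison of beige with white adipocytes above. All 9 estimates were small, between −0.15 for Acsl1 and 0.16 for Gpam. Gpam had the only higher value without overlap, at 40.7 and 45.3 FPKM in ATF7KO beige, against 37.0 and 39.5 FPKM in WT beige libraries, with a log2 fold change of 0.16 (95% interval −0.06 to 0.39, adjusted p = 0.617). Lpin1 was the only one lower without overlap, at 66.0 and 64.6 FPKM in ATF7KO beige, against 71.9 and 67.4 FPKM in WT beige libraries (−0.09, 95% interval −0.32 to 0.14, adjusted p = 0.793). The share of all genes tested that did not overlap between these groups was not counted. The widest interval was that of Pck1, −0.30 to 0.52 around 0.11. Replicate 2 of ATF7KO beige was above replicate 1 for 8 of the 9 genes, all but Lpin1, while the WT beige replicates lay close together. The thermogenic markers summed to 1112 to 1172 FPKM in ATF7KO beige and 867 to 909 FPKM in WT beige libraries, with 7 of 7 estimates above 0 and 0 called (limma). Among the 30 wider pathway genes tested, 0 changed. Gk was at 23.9 and 36.1 FPKM in ATF7KO beige, against 14.5 and 18.0 FPKM in WT beige libraries (0.83, SE 0.183, adjusted p = 0.218), and is named here after its values were seen.

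The third comparison set ATF7KO-labelled against WT white adipocytes, and Pck1 was the only one of the 9 genes that changed. Its level was 1.70 and 1.99 FPKM in ATF7KO white libraries, against 4.30 and 5.33 FPKM in WT white libraries. Both ATF7KO libraries lay below both WT libraries, with a log2 fold change of −1.03 (SE 0.181, 95% interval −1.44 to −0.62, limma adjusted p = 0.0339). At levels this low the pseudocount of 1 FPKM makes the fold change too small in size. The ratio of mean FPKM, ATF7KO over WT, was 0.383. Of all genes tested 1.89% changed, 1.27% higher (143 genes) and 0.620% lower (70 genes). Without ATF7KO white replicate 1 the balance turned to 8 genes higher and 17 lower, and without ATF7KO white replicate 2 to 7 higher and 16 lower. The Pck1 call was lost with no filter on low values (adjusted p = 0.0789), without ATF7KO white replicate 1 (0.161) or 2 (0.188), without WT white replicate 2 (0.172) and without WT beige replicate 1 (0.0606) or 2 (0.0592). Over all alternatives the limma adjusted p ran from 0.0105 to 0.188. The share of Pck1 in Pck1 plus Pck2 was 12.9% and 13.9% in ATF7KO white libraries, against 29.6% and 27.1% in WT white libraries.

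Aqp7, Acsl1, Dgat2 and Gpd1 did not overlap between the white groups either and did not pass the test. How many of all genes tested did not overlap was not counted. With 2 libraries against 2 the smallest two-sided p of an exact permutation test is 0.333, so a lack of overlap alone says little. Aqp7 was at 3.77 and 3.43 FPKM in ATF7KO white, against 4.71 and 5.59 FPKM in WT white libraries (log2 fold change −0.42, SE 0.126, limma adjusted p = 0.127); it passed with quantile normalization (−0.50, adjusted p = 0.0469). Acsl1 was at 245 and 234 FPKM in ATF7KO white, against 300 and 324 FPKM in WT white libraries (−0.38, adjusted p = 0.170). Dgat2 had 234 and 225 FPKM in ATF7KO white, against 273 and 326 FPKM in WT white libraries (−0.38, adjusted p = 0.197). Gpd1 lay on the other side, at 157 and 134 FPKM in ATF7KO white, against 115 and 108 FPKM in WT white libraries (0.38, adjusted p = 0.220). The values of Agpat2, Dgat1, Gpam and Lpin1 overlapped, with log2 fold changes between −0.08 and 0.10.

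Macrophage markers had higher estimates with the ATF7KO label in white adipocytes, while few adipocyte or preadipocyte markers were called. All 12 macrophage markers were above 0 in log2 fold change, with a median of 0.74, and 5 of them rose (C1qb, Cd14, Csf1r, Fcer1g and Mrc1). Over the 11294 genes tested here, estimates centred on 0.03, and 1.27% were called higher and 0.620% lower (limma). The summed level was 775 to 823 FPKM in ATF7KO white and 524 to 585 FPKM in WT white libraries. All 8 adipocyte markers were below 0, with a median of −0.27, and 1 of them fell, Cidec, a lipid droplet protein. Of 7 preadipocyte and stromal markers tested, 6 were above 0 and 1 rose, Pi16. The part of these cells in the lower Pck1 level was not tested. From the wider pathway, Plpp3, another surface lipid phosphatase, rose to 101 and 109 FPKM in ATF7KO white, against 68.5 and 66.7 FPKM in WT white libraries (0.63, SE 0.0935, limma adjusted p = 0.0205). Cd36, a fatty acid uptake receptor that macrophages express too, fell to 114 and 112 FPKM in ATF7KO white, against 177 and 185 FPKM in WT white libraries (−0.67, SE 0.118, adjusted p = 0.0339). Gpat3, a glycerol phosphate acyltransferase of the endoplasmic reticulum and the other abundant member of Gpam's family, was named after its values were seen. It was at 23.2 and 18.6 FPKM in ATF7KO white, against 34.9 and 42.3 FPKM in WT white libraries (−0.86, SE 0.187, adjusted p = 0.0620), and Gpam had 66.4% and 71.4% of its family, against 58.5% and 55.1%.

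Whether rosiglitazone had another effect in ATF7KO-labelled than in WT cells was tested as an interaction, the beige-white difference in ATF7KO minus that in WT. Of the 9 genes 0 passed (limma), against 0.292% of all genes (0.106% above 0, 0.186% below 0), 33 in number, with 1900 at an unadjusted p under 0.05. Of the 9, Pck1 and Aqp7 had an unadjusted p under 0.05. The interaction of Pck1 was 1.14 on the log2 scale (SE 0.256, 95% interval 0.55 to 1.72, adjusted p = 0.144). It passed without ATF7KO beige replicate 1 (1.44, adjusted p = 0.0309). That of Aqp7 was 0.54 (SE 0.179, 95% interval 0.14 to 0.95, adjusted p = 0.211). For both genes the ATF7KO and WT groups overlapped in beige and did not in white adipocytes. The other 7 intervals all held 0, with estimates from −0.36 for Gpd1 to 0.35 for Dgat2.

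The fourth comparison set ATF7-Overexpressing against Control C3H10t1/2 beige adipocytes, and 3 of the 9 genes changed, Pck1, Dgat2 and Gpam, all lower. Of the 9981 genes tested 1.49% changed, 0.431% higher and 1.06% lower. Pck1 was at 71.6 and 74.1 FPKM in ATF7-Overexpressing libraries, against 111 and 99.6 FPKM in Control libraries (log2 fold change −0.52, SE 0.0754, limma adjusted p = 0.0338). Dgat2 was at 123 and 120 FPKM in ATF7-Overexpressing libraries, against 162 and 166 FPKM in Control libraries (−0.43, SE 0.0619, adjusted p = 0.0341). Gpam was at 36.6 and 38.6 FPKM in ATF7-Overexpressing libraries, against 50.4 and 49.2 FPKM in Control libraries (−0.40, SE 0.0638, adjusted p = 0.0485). The groups did not overlap for any of the 3, nor for Lpin1, Dgat1, Aqp7 and Gpd1, which did not pass. The adjusted p of the 3 lay close to the threshold. The share of all genes tested without overlap was not counted here either. With no filter on low values, with no trend in the variance prior, with the replicate number as a block or with all 12 libraries in 1 fit, 0 of the 9 passed (limma). Without ATF7-Overexpressing replicate 1, ATF7-Overexpressing replicate 2 or Control replicate 1, 0 passed as well, and without Control replicate 2 Pck1 alone did. Gpam also missed the threshold with small RNA genes left out, with a pseudocount of 0.1 and with median centring, and with quantile normalization Dgat2 alone passed. Over all alternatives the adjusted p ran from 0.0262 to 0.235 for Pck1, from 0.0262 to 0.182 for Dgat2 and from 0.038 to 0.189 for Gpam.

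The remaining 6 genes did not pass. Lpin1 was at 37.7 and 36.5 FPKM in ATF7-Overexpressing libraries, against 44.4 and 44.7 FPKM in Control libraries (log2 fold change −0.26, SE 0.0610, limma adjusted p = 0.110). Dgat1 was at 97.9 and 102 FPKM in ATF7-Overexpressing libraries, against 87.3 and 85.8 FPKM in Control libraries (0.20, SE 0.0618, adjusted p = 0.178). Dgat1 and Dgat2 thus had estimates of opposite sign, and Dgat2 made up 55.6% and 54.2% of the pair in ATF7-Overexpressing libraries, against 64.9% and 65.9% in Control libraries. Aqp7 was at 72.8 and 68.7 FPKM in ATF7-Overexpressing libraries, against 78.0 and 83.7 FPKM in Control libraries (−0.19, adjusted p = 0.246). Gpd1 was at 1320 and 1262 FPKM in ATF7-Overexpressing libraries, against 1335 and 1533 FPKM in Control libraries, and did not overlap either (−0.15, adjusted p = 0.490). Agpat2 overlapped at 810 and 734 FPKM in ATF7-Overexpressing libraries, against 661 and 739 FPKM in Control libraries. Acsl1 was nearly level, at 774 and 763 FPKM in ATF7-Overexpressing libraries, against 769 and 759 FPKM in Control libraries (0.01, 95% interval −0.16 to 0.18).

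In the same cells 4 of 6 thermogenic markers tested fell, Ucp1, Cidea, Cpt1b and Elovl3. The list summed to 624 to 754 FPKM in ATF7-Overexpressing and 1069 to 1162 FPKM in Control libraries. Cox8b, which was not called, was the largest part of these sums, at a mean of 589 FPKM in ATF7-Overexpressing and 807 FPKM in Control cells. Ppargc1a, too low to be tested, went the other way, at 0.300 against 0.185 FPKM. The 8 adipocyte markers summed to 11561 to 12622 FPKM in ATF7-Overexpressing and 11761 to 11941 FPKM in Control libraries, and 0 of them changed (limma; 6 of 8 estimates were above 0). Of the 8 preadipocyte and stromal markers 5 were tested, and all 5 had estimates below 0 (median −0.23 on the log2 scale). Of this list 0 were called (limma) and 3 had an unadjusted p under 0.05, against 1715 of all 9981 genes tested. That list summed to 47.1 FPKM in both ATF7-Overexpressing libraries and to 53.6 to 57.9 FPKM in Control libraries. Macrophage markers summed to at most 2.32 FPKM in these cells. The part of other cell types in the lower levels of Pck1, Dgat2 and Gpam was not tested. Of 28 wider pathway genes tested, Gk alone changed: it fell to 32.4 and 30.8 FPKM in ATF7-Overexpressing libraries, against 59.4 and 67.9 FPKM in Control libraries (log2 fold change −0.99, SE 0.0824, limma adjusted p = 0.00785).

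**Figure D4:**
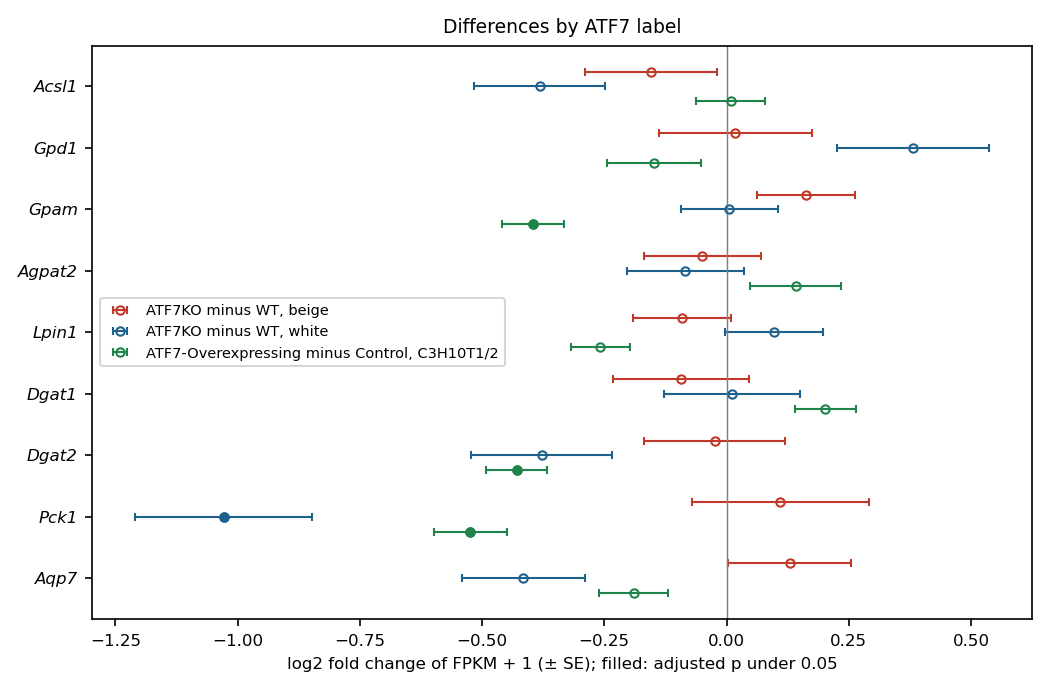
Log2 fold change of each of the 9 genes for ATF7KO against WT beige adipocytes, ATF7KO against WT white adipocytes and ATF7-Overexpressing against Control C3H10t1/2. Bars are ± SE from limma, not 95% intervals, and filled points have an adjusted p under 0.05. Pck1 is lower in ATF7KO white adipocytes by 1.03, a size reduced by the pseudocount of 1 FPKM, and lower with ATF7 overexpressed by 0.52. Its 95% interval, which is not drawn, holds 0 in ATF7KO beige adipocytes.

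Across the 6 groups the 9 genes fell into several profiles, given here as a description over 6 group means with no test. Agpat2 and Dgat1 were most alike: after each profile was centred on its own mean, their log2 values differed by 0.0399 on average. Both were highest in C3H10t1/2, lower in the primary beige groups and lowest in the white groups. Acsl1, Pck1, Gpd1 and Aqp7 shared that order. Pck1 and Aqp7 differed by 0.249 and Gpd1 and Aqp7 by 0.303, while the nearest of the 9 to Dgat2, which was Gpam, differed from it by 0.75. With the 9 themselves left out, and predicted and small RNA genes too, the gene nearest to Pck1 among 11061 genes was Acaa1b, a peroxisomal thiolase, at a difference of 0.162. Nearest to Aqp7 was Ephx2, the soluble epoxide hydrolase, at 0.0831. The gene nearest to Dgat2 was Pdgfrl at 0.116, to Gpam Tmem150a at 0.0484, to Lpin1 Xrcc6 at 0.067, to Acsl1 Plekhf2 at 0.0504, to Dgat1 Natd1 at 0.0569 and to Agpat2 Supv3l1 at 0.0529, both farther than Dgat1 and Agpat2 were from each other. Gpd1 was nearest to Nt5dc2 at 0.167, which was listed at 0 in all white libraries.

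The 9 genes lie on 7 mouse chromosomes, on mm10. Dgat1 (15:76502015-76511818) and Gpd1 (15:99717593-99725007) share chromosome 15, and Agpat2 (2:26593057-26604417) and Pck1 (2:173153073-173159253) share chromosome 2, in neither case as neighbours. The others are Dgat2 (7:99153663-99182713), Gpam (19:55069734-55099447), Lpin1 (12:16535669-16589770), Aqp7 (4:41033074-41048136) and Acsl1 (8:46471037-46536051).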

How the data were processed

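The authors deposited 1 FPKM value per gene and library, per the file headers, on mm10 (GRCm38) per the submitters' processing notes. The aligner, quantifier and annotation were not given in the sources used here. The depth is unknown. An exact 0 may be a failed estimate. Per the labels' protocols, libraries were rRNA-depleted, directional and paired-end. Groups were taken from the sample titles. The 9 genes, the other lists and the tests were chosen with earlier results of these data known.

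Each entry was tested on log2(FPKM + 1) with limma 3.58.1 (eBayes with trend, two-sided) in R 4.3.3, for genes that reached 1 FPKM in 2 or more of the fitted libraries. The Benjamini-Hochberg adjusted p, over all genes, had to be under 0.05. The 8 primary libraries shared 1 fit (4 residual degrees of freedom), and the 4 C3H10t1/2 libraries had their own (2). Intervals are at 95%. Deposited starts were counted from 0, so 1 was added. The fit was also run on simulated data, and the outcome of that run is not reported here.

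Besides the 9 genes and Atf7, the text names up to 4 called genes of the wider list per comparison, by lowest p, and for each of the 9 the gene outside the 9 with the smallest mean absolute difference of centred group means. Gpat3, and Gk in ATF7KO against WT beige, fall outside this rule. Older symbols in the deposited values are given here by current ones (Agpat9 as Gpat3, Gyk as Gk, Ppap2a and Ppap2b as Plpp1 and Plpp3). RefSeq promoter windows were found for 6 of the 9 genes, 5 of them within 100 bases of the deposited start; Dgat1, Dgat2 and Gpd1 are named only. Paralogues that share reads, such as Gpd1 with Gpd1l, may be uncertain.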

Additional observations from a re-analysis of the deposited data

How the results depend on the processing

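The 9 beige-white changes kept their direction and call in both genotypes under all alternatives that keep every library. Quantile normalization moved the median of all genes to 0.02 from −0.10 in WT and to 0.06 from −0.06 in ATF7KO, and leaving out small RNA genes moved it to −0.24 and −0.26. Of the genes called, the share with higher values was then 50.9% and 28.0% in WT and 52.8% and 29.8% in ATF7KO, against 40.2% and 43.7%. With median centring it was 51.4% in WT and 52.8% in ATF7KO. For ATF7KO against WT white it was 50.4% with quantile normalization and 52.8% with median centring, against 67.1%, and for overexpression 42.7% without small RNA genes, against 28.9%.

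Counts of the 9 genes called moved as follows. In white adipocytes (1) it was 0 with no filter and 2 with quantile normalization. With overexpression (3) it was 0 with no filter, no trend, the replicate block or all 12 libraries in 1 fit, and 1 (Dgat2) with quantile normalization. Leaving out 1 library gave 0 to 0 in ATF7KO against WT beige, 0 to 1 in white, 8 to 9 in WT and 9 to 9 in ATF7KO beige against white, 0 to 1 in the interaction and 0 to 1 with overexpression. The cause was not tested.

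Over all genes, ATF7KO against WT beige had 17 calls, 26 with all 12 libraries, and 5 to 20 without 1 library. In white adipocytes 213 became 54 (pseudocount 0.1), 122 (no filter), 387 (quantile), 642 (all 12 libraries) and 116 (only the 4 compared), and 23 to 277 without 1 library. Beige against white had 6069 calls in WT and 6887 in ATF7KO, with 4041 and 4544 at 5 FPKM, where fewer genes were tested, and 4717 to 6268 and 5560 to 7028 without 1 library. The interaction had 33, with 20 (pseudocount 0.1), 11 (5 FPKM), 116 (all 12 libraries) and 16 to 43 without 1 library. Overexpression had 149, with 22 (no filter), 91 (no trend) and 17 to 138 without 1 library.

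Reversals were all of genes that did not pass. In ATF7KO against WT beige Gpd1 went to −0.012 (median centring) and −0.027 (no small RNA genes). In white adipocytes Dgat1 went to −0.020 (median centring) and Gpam to −0.0024 (quantile) and −0.026 (median centring). The interaction of Agpat2 went to −0.026 (quantile) and −0.022 (no small RNA genes). Without 1 library, the beige log2 fold changes ran from −0.22 to 0.17 (Dgat2), −0.15 to 0.046 (Agpat2), −0.19 to 0.41 (Pck1), −0.20 to 0.24 (Gpd1), −0.028 to 0.29 (Aqp7) and −0.33 to 0.017 (Acsl1). White ones ran from −0.19 to 0.21 (Dgat1) and −0.043 to 0.054 (Gpam), interactions from −0.30 to 0.10 (Dgat1) and −0.062 to 0.13 (Agpat2), and Acsl1 with overexpression from −0.0020 to 0.018.

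Replicate numbers are shared by the groups, but with 2 replicates they were not shown to pair them: differences between replicates correlated across genes at 0.111 between the beige groups, 0.124 between the white groups and 0.0554 in C3H10t1/2, and at −0.0865 to −0.0044 for other pairs of groups. With the replicate block, ATF7KO against WT beige had 27 calls and overexpression 88, with 0 of the 9 genes in each.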
